A study of Mus musculus with 6 samples.

Results

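The interleukin-4 (IL-4) and interleukin-10 (IL-10) axis was followed through 9 genes chosen by name, with earlier results of these data known, which were the cytokine Il10, the receptor chains Il4ra, Il13ra1, Il10ra and Il10rb, and the M2 markers Mrc1, Mgl2, Chil3 and Retnla. They were found by symbol in the deposited count table, and all 9 of them, out of 22377 genes listed, were present and passed the filter on low counts. RNA came from tumor-associated macrophages (TAMs) of Lewis lung carcinoma (LLC), a mouse lung tumor line grown under the skin of young adult mice of both sexes, and was sequenced in 6 libraries. In 3 of them the label is wt, for mice that the study calls Npm1+/+. The other 3 carry the labels ko and knockdown, for mice that the study calls Npm1+/-, that is, heterozygous for an allele whose making is not given in the sources used here. Per the study's methods the cells were sorted as CD45+ CD11b+ F4/80+, whereas the sample labels name tumor tissue and a small RNA protocol, and these accounts were not reconciled here. Nothing else, such as a drug, separated the groups in the labels.

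IL-4 and IL-13 act on macrophages through the IL-4 receptor alpha chain, which pairs with the common gamma chain or with the IL-13 receptor alpha 1 chain and passes the signal to the transcription factor STAT6. IL-10 acts through a ligand-binding chain and a shared second chain and passes the signal to STAT3. Macrophages exposed to IL-4 or IL-13 in culture take up the so-called M2 state, which in the mouse is recognized by the mannose receptor CD206 (Mrc1), a galactose-type lectin (Mgl2), a chitinase-like protein (Chil3, also called Ym1) and a resistin-like protein (Retnla, also called Fizz1), and IL-10 is a cytokine that such cells release to dampen inflammation. In tumors these markers are used to describe TAMs that support growth, so the comparison asks whether the libraries labelled ko differed from wt in them.

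Total counts lay between 36550775 and 38147320 per library. Values are CPM, counts divided by library size after TMM scaling in edgeR, unless FPKM is named. FPKM values are as deposited, divided by total counts and gene length without TMM scaling. The TMM factors were 0.9326, 0.9334 and 0.9834 for wt replicates 1, 2 and 3 and 1.0506, 1.1471 and 0.9693 for ko. CPM therefore sets ko replicates 1 and 2 lower against wt than FPKM does. Fold changes, also called estimates, are ko minus wt on the log2 scale with a standard error, and adjusted p-values are from edgeR's quasi-likelihood test, corrected over the 13884 genes that entered it. By that test 0 genes passed an adjusted p of 0.05, a share of 0%, with 2112 genes at an unadjusted p under 0.05. DESeq2 called 36 genes on the same libraries (0.263%). Npm1, the targeted gene, stood at 142, 380.2 and 381 CPM in the wt libraries and at 441, 499 and 343 in those labelled ko (log2 fold change 0.51, standard error 0.36, adjusted p = 0.436, and 0.16, standard error 0.18, adjusted p = 0.684, without wt replicate 1), so the label was not borne out by the mRNA and the groups are named here by their labels. The wt replicate 1 library stood apart on the first principal component, at -108 against -4.54 to 52.0 for the other 5. The fold changes of the members are also given without it, as are the other fold changes and list medians that its removal moved by over 1.5 times or turned. Group means, summed levels and ratios include it unless stated. Of the sorting and macrophage markers, Ptprc (CD45), Itgam (CD11b) and Adgre1 (F4/80) had at least 928, 1492 and 127 CPM in every library, and Csf1r and Cd68 at least 547 and 349 CPM.

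None of the 9 members passed the adjusted threshold with 6 libraries or without wt replicate 1, where edgeR again called 0% of 14311 genes and DESeq2 0.659% of genes. The estimates of 8 members lay below 0 and that of Retnla above 0, and the median of the members was -0.44 against 0.02 for all genes tested. Il4ra, Il10rb and Chil3 had an unadjusted p under 0.05, each with the lower values in ko, against 8.31% of all genes in that direction. Without wt replicate 1 the members lower in ko at that level were Il10 and Il10rb, against 5.38% of genes, and Retnla was higher, against 6.81%. Il4ra and Il10rb were the only members whose values did not overlap between the groups over 6 libraries, with each ko library below each wt library, as was true of 12.6% of all genes. Without wt replicate 1, Il4ra and Il10rb again did not overlap with ko lower (14.9% of all genes), and Retnla did not overlap with ko higher (16.6%).

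**Figure D1:**
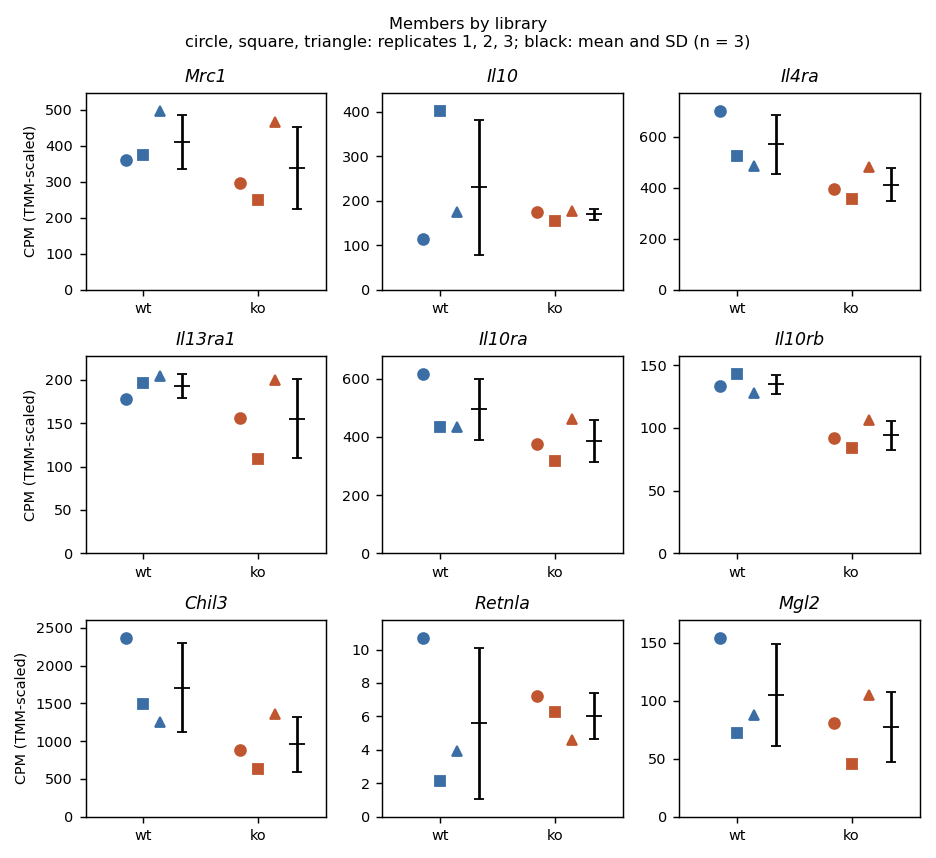
CPM of each member in each library, with wt in blue and ko in orange; symbols mark replicate numbers and black bars the mean and SD of 3 libraries. Il4ra and Il10rb are the panels in which every ko library lies below every wt library, with Il4ra in ko replicate 3 at 481 CPM just under wt replicate 3 at 486, while Il10 ranges from 114 to 402 CPM within wt alone.

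Il10, the cytokine of the set, had 114, 402 and 174 CPM in wt replicates 1, 2 and 3 and 176, 156 and 178 CPM in ko replicates 1, 2 and 3. The ko libraries were close together and lay inside the range of the wt libraries, in which replicate 2 was high and replicate 1 low. The mean was 230.1 ± 152 CPM (SD, n = 3) in wt and 169.7 ± 12.3 CPM (SD, n = 3) in ko. The estimate was -0.44 (standard error 0.41, adjusted p = 0.539), and it was -0.77 (standard error 0.30, adjusted p = 0.406) without wt replicate 1 and 0.23 without wt replicate 2, so 1 library decided its direction. The gene lies on chromosome 1 of GRCm38 (131019845 to 131024974, plus strand), free of overlapping annotation. The quantitative PCR primers that the study designed for Il10 and Mrc1 are shown because they fix which part of each transcript that assay reads, in contrast to counts over the whole gene.
Il10 forward: cgggaagacaataactgcaccc
Il10 reverse: cggttagcagtatgttgtccagc
Mrc1 forward: gttcacctggagtgatggttctc
Mrc1 reverse: aggacatgccagggtcaccttt
Both primer pairs matched the GENCODE transcripts exactly. The Il10 pair spans 130 bases from exon 1 to exon 2 of 5 exons, and the Mrc1 pair spans 116 bases from exon 14 to exon 15 of 30, so each crosses an intron.

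The other cytokines that use these receptors were close to absent. Il4, the ligand of the IL-4 receptor, had 1, 2 and 0 counts in the wt libraries and 1, 1 and 2 counts in the ko libraries. Il13, which signals through the same alpha chain, had 0, 0 and 7 counts in wt and 6, 4 and 0 counts in ko. These were at or near the 3 counts that a count of 0 allows, which covers counting error only, and none of the cytokines Il4, Il13, Il19, Il20, Il22 and Il24 was high enough to be tested. Il19, Il20, Il22 and Il24, relatives of IL-10, had at most 10 counts in any library.

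Among the receptor chains, Il10rb, the shared second chain of the IL-10 receptor, had the smallest p-value of the members. It stood at 134, 143 and 128 CPM in wt replicates 1, 2 and 3 and at 92.2, 83.8 and 107 CPM in ko replicates 1, 2 and 3. The groups did not overlap, with means of 135 ± 7.68 CPM (SD, n = 3) in wt and 94.2 ± 11.5 CPM (SD, n = 3) in ko. The estimate was -0.52 (standard error 0.13, adjusted p = 0.328), and it was -0.52 (standard error 0.14, adjusted p = 0.406) without wt replicate 1, the most stable estimate of the set under that change. The gene lies on chromosome 16 (91406164 to 91425834, plus strand) and overlaps the annotated gene Gm21970 on the same strand, and 19.47% of the 50-base words of its longest transcript recur in transcripts of other genes, so reads could have been divided or dropped there. Il10ra, the chain that binds IL-10, had 615, 435 and 434 CPM in wt and 377, 316 and 461 CPM in ko. The groups overlapped through ko replicate 3, and the estimate was -0.36 (standard error 0.20, adjusted p = 0.361) with all libraries and -0.18 (standard error 0.18, adjusted p = 0.655) without wt replicate 1, the highest library.

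Il4ra, the alpha chain through which both IL-4 and IL-13 signal, had 701, 522 and 486 CPM in wt replicates 1, 2 and 3 and 396, 356 and 481 CPM in ko replicates 1, 2 and 3. No ko library reached the lowest wt library. The mean was 569.8 ± 115 CPM (SD, n = 3) in wt and 411 ± 64.2 CPM (SD, n = 3) in ko, with a log2 fold change of -0.47 (standard error 0.19, adjusted p = 0.328). Without wt replicate 1, the highest library, it was -0.30 (standard error 0.16, adjusted p = 0.459). Il4ra lies on chromosome 7 (125552120 to 125579474, plus strand) with the antisense gene Gm44876 across it, and whether counting used strand is not given in the sources used here. Il13ra1, which pairs with it to bind IL-13, had 178, 197 and 205 CPM in wt and 156, 109 and 200.3 CPM in ko. The groups overlapped, again through ko replicate 3, and the estimate was -0.32 (standard error 0.21, adjusted p = 0.417), and -0.37 (standard error 0.23, adjusted p = 0.486) without wt replicate 1.

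The partner chains of these receptors differed from them in spread. Il2rg, the common gamma chain that completes the IL-4 receptor of blood cells, had between 209 and 222 CPM in wt and between 186 and 209 CPM in ko, with a log2 fold change of -0.10 (standard error 0.11, adjusted p = 0.591). Il13ra2, the decoy receptor for IL-13, had at most 12 counts in any library and was not tested. The other receptor chains and decoys for relatives of IL-10 were low. Il20rb had a mean of 1.22 CPM in wt and 1.86 in ko, Il22ra2 0.194 and 0.351, and Ifnlr1, the partner of Il10rb in the receptor for type III interferon, 0.760 and 0.369. Il20ra had a single count in ko replicate 1 and none elsewhere.

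**Figure D2:**
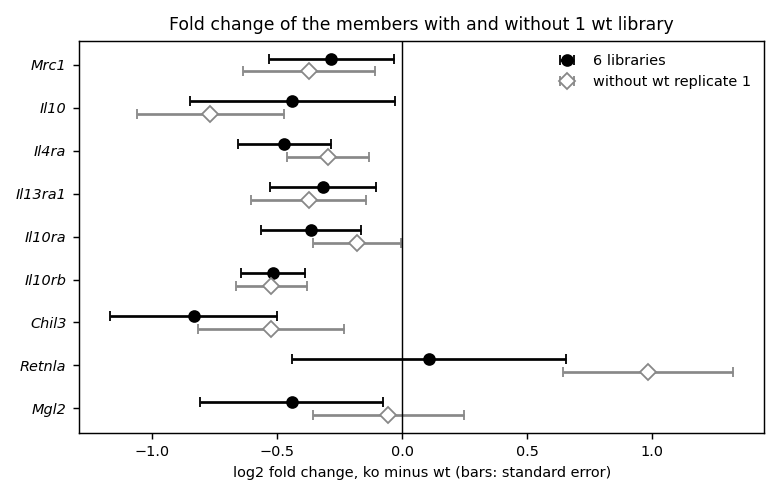
Log2 fold change (ko minus wt) of each member from edgeR, with standard errors, over 6 libraries (filled circles) and without wt replicate 1 (open diamonds). Il10rb keeps -0.52 in both, Chil3 goes from -0.83 to -0.52, and Retnla from 0.11 to 0.99, with adjusted p-values of 0.328 or more throughout.

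Mrc1 encodes the mannose receptor CD206, the surface marker by which the study scored M2 macrophages. It had 360.1, 375 and 497 CPM in wt replicates 1, 2 and 3 and 296, 249.5 and 466 CPM in ko replicates 1, 2 and 3. Replicate 3 was the highest of each group and the groups overlapped. The mean was 410.5 ± 75.1 CPM (SD, n = 3) in wt and 337 ± 114 CPM (SD, n = 3) in ko. The estimate was -0.28 (standard error 0.25, adjusted p = 0.515), and it was -0.37 (standard error 0.26, adjusted p = 0.540) without wt replicate 1. Mrc1 lies on chromosome 2 (14229392 to 14332057, plus strand) and holds the microRNA gene Mir511.

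Mgl2, the galactose-type lectin CD301b, had 155, 72.3 and 87.9 CPM in wt and 80.8, 45.4 and 105 CPM in ko. The highest library was wt replicate 1, and the ko libraries lay on both sides of the other wt libraries. The estimate was -0.44 (standard error 0.37, adjusted p = 0.490) over 6 libraries and -0.06 (standard error 0.30, adjusted p = 0.947) without wt replicate 1. Clec10a, the neighboring gene for the related lectin MGL1, had a log2 fold change of -0.42 (standard error 0.38, adjusted p = 0.527), and -0.08 (standard error 0.34) without wt replicate 1. Of the 50-base words of Mgl2, 16.46% recur in transcripts of other genes, Clec10a among them, and reads could have been divided between them.

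Chil3, the chitinase-like protein Ym1, was the most abundant member and had the most negative estimate. It stood at 2369, 1497 and 1252 CPM in wt replicates 1, 2 and 3 and at 889, 628 and 1354 CPM in ko replicates 1, 2 and 3. The groups overlapped because ko replicate 3 exceeded wt replicate 3. The mean was 1706 ± 587 CPM (SD, n = 3) in wt and 957 ± 368 CPM (SD, n = 3) in ko, with a log2 fold change of -0.83 (standard error 0.33, adjusted p = 0.328). Without wt replicate 1 it was -0.52 (standard error 0.29, adjusted p = 0.461). Of the words of its transcript, 29.4% recur in Chil4 or the pseudogene Gm6522, but Chil4 itself had at most 6 counts in any library.

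Retnla, the resistin-like protein Fizz1, was the least abundant member and the only one with a positive estimate. It had 381, 76 and 147 counts in wt replicates 1, 2 and 3 and 285, 263 and 167 counts in ko replicates 1, 2 and 3, or 10.7, 2.14 and 3.93 CPM against 7.25, 6.28 and 4.57. The wt group held both the highest and the lowest library, and the ko libraries lay between. The estimate was 0.11 (standard error 0.55, adjusted p = 0.917). Without wt replicate 1 each ko library lay above both remaining wt libraries, and the estimate was 0.99 (standard error 0.34, adjusted p = 0.406), whereas it turned to -0.28 without wt replicate 2.

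Since STAT6 and STAT3 bind sites in which TTC and GAA are set apart by 4 or 3 bases, the promoters (250 bases before to 50 after the RefSeq start, GRCm38.p6) were searched for these letters. Entries were found for 6 members, and Il10, Il10ra and Il10rb had none in the table. The letters read the same on both strands. Of the 6 promoters, only that of Retnla held the 4-base spacing, present in 6.953% of 32851 promoters, and only that of Chil3 held the 3-base spacing, present in 8.298%. Both are shown because they alone held a match, with the matched letters in capitals. The Retnla sequence is chr16:48842359-48842658 (plus strand), with the match at 48842464 to 48842473, and the Chil3 sequence is chr3:106167515-106167814 (minus strand), with the match at 106167728 to 106167736. The match begins 145 bases before the start of Retnla and 172 before that of Chil3.
Retnla promoter: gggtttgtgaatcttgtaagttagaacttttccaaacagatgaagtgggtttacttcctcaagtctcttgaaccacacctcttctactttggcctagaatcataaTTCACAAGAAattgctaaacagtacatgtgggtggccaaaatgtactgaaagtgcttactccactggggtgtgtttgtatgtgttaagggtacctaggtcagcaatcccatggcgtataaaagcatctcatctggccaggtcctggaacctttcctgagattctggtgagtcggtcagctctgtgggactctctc
Chil3 promoter: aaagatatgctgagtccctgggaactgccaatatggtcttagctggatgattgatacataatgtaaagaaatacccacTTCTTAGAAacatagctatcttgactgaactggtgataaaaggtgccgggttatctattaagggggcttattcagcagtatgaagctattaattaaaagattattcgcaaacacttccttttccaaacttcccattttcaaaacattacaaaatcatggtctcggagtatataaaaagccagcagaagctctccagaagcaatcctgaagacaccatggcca
These matches describe letters in the window and no binding was measured here.

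Compared per length, the members spanned a wide range of levels. Chil3 had a mean of 861 ± 339 FPKM (SD over 6 libraries) and ranked 88 of the 22377 genes. It was followed by Il10ra at 124, Il10 at 94.5, Il4ra at 92.9, Mrc1 at 69.6, Il13ra1 at 46.3, Mgl2 at 45.2 and Il10rb at 36.7 FPKM, with ranks from 522 to 1664. Retnla came last at 10.8 FPKM and ranked 4280. The lowest library of Chil3 (477 FPKM) lay above the highest of Il10ra (164 FPKM), and the lowest of Il10rb (31.1 FPKM) above the highest of Retnla (18.5 FPKM). From Il10ra to Il10rb, the ranges of each pair of neighbors in this order overlapped over the libraries. Ranges do not compare genes within a library, where Mrc1 exceeded its neighbor Il13ra1 in all 6 (63.1 and 44.7 FPKM in wt replicate 1). Some members farther apart did not overlap. The lowest library of Il10ra (104 FPKM) exceeded the highest of Mrc1 (91.8 FPKM), and the lowest of Mrc1 (53.8 FPKM) the highest of Il10rb (43.1 FPKM).

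**Figure D3:**
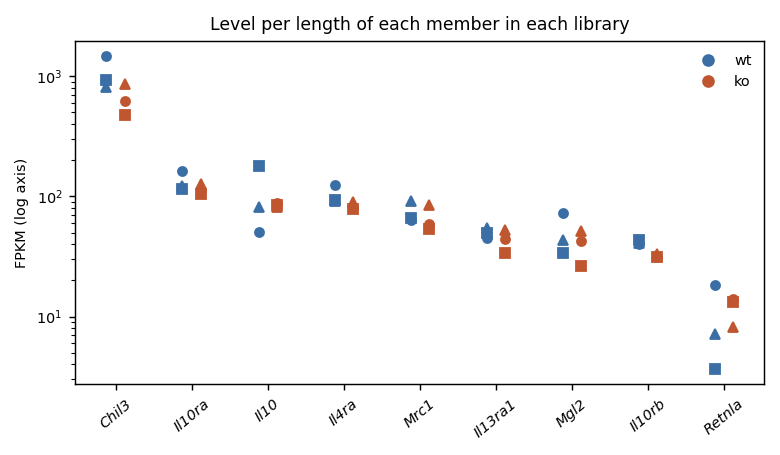
FPKM of each member in each of 6 libraries on a log axis, ordered by mean; blue is wt, orange is ko and symbols mark replicates 1, 2 and 3 as circle, square and triangle. Chil3 and Retnla stand clear of the other members at 477 to 1462 and at 3.69 to 18.5 FPKM.

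The members also differed in how much they varied between libraries. The highest library exceeded the lowest by 1.70-fold in CPM for Il10rb and by 1.88 to 1.99-fold for Il13ra1, Il10ra, Il4ra and Mrc1. The ratio was 3.40-fold for Mgl2, 3.53-fold for Il10, 3.77-fold for Chil3 and 5.00-fold for Retnla. In 7 members the lowest library was ko replicate 2, the exceptions being Il10 (wt replicate 1) and Retnla (wt replicate 2). The likeness of profiles was measured as the root mean square difference of log2 CPM, each gene centered on its mean of 6 libraries. Among the members Il4ra and Il10ra were the closest pair (0.069), followed by Mrc1 and Il13ra1 (0.143), and Il10 and Retnla the most distant (1.25). Outside the set, Mgl2 was closest to Clec10a (0.068), Dpep3 (0.081) and Gm16174 (0.106), Chil3 to Gdf3 (0.072), Scnn1a (0.095) and Cebpb (0.104), and Retnla, less closely, to Stfa3 (0.163), Khdc3 (0.203) and Gjb2 (0.217). Mrc1 was closest to Kantr (0.076), Rnase4 (0.092) and Rhoq (0.104), and Il10 to Gm54119 (0.057), Trpt1 (0.142) and Marcksl1 (0.149). Of the receptor chains, Il4ra was closest to Cnpy3 (0.022), Cd300c2 (0.024) and Fam89b (0.026), Il10ra to Glud1 (0.021), Tkt (0.034) and Rab1b (0.035), Il10rb to Castor2 (0.021), Iqsec1 (0.040) and Papss2 (0.049), and Il13ra1 to Rnf13 (0.059), Pde4b (0.059) and Wfdc21 (0.064). Genes were ranked over only 6 libraries, all of which every gene shares.

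The signalling genes behind both receptors were mixed. Of 14 kinases, STATs and feedback genes, all tested, 9 had estimates below 0 and 5 above, 0 passed the adjusted threshold, and the median was -0.18. They were 8 and 6 without wt replicate 1, with a median of -0.10. Stat6, the factor downstream of IL-4, had a mean of 324 ± 50.7 CPM (SD, n = 3) in wt and 225 ± 32.1 CPM (SD, n = 3) in ko, without overlap (log2 fold change -0.53, standard error 0.16, adjusted p = 0.328). Stat3, downstream of IL-10, had 407 ± 85.2 and 301 ± 13.6 CPM, also without overlap (log2 fold change -0.44, standard error 0.16, adjusted p = 0.328, and -0.26, standard error 0.13, without wt replicate 1). Ptpn6, the phosphatase SHP-1, had the most negative estimate of the list at -0.94 (standard error 0.29, adjusted p = 0.328). The receptor kinases were Jak1 at -0.12, Jak2 at 0.30, Jak3 at -0.16 and Tyk2 at -0.53. Among the feedback inhibitors, Socs1 was at 0.53, Socs2 at 0.00, Socs3 at -0.41 and Cish at -0.29. Irs2, an adaptor of the IL-4 receptor, was at 0.26, Ptpn11 at -0.19 and Pias1 at 0.22. With wt replicate 1 left out, Jak2 was at 0.16, Jak3 at 0.00, Tyk2 at -0.25, Socs2 at 0.21, Cish at -0.10, Irs2 at 0.43 and Ptpn11 at -0.10.

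Genes known to be induced by IL-4 or IL-13 were divided in direction. Of 27 such genes 25 were tested, 18 with estimates below 0 and 7 above, 0 passed the adjusted threshold, and the median was -0.22. Leaving out wt replicate 1 gave 15 and 10, with a median of -0.08. Arg1, the arginase that marks M2 cells, had 858 ± 121 CPM (SD, n = 3) in wt and 761 ± 151 CPM (SD, n = 3) in ko, with a log2 fold change of -0.17 (standard error 0.19, adjusted p = 0.597), and -0.29 (standard error 0.19) without wt replicate 1. The chemokines Ccl17, Ccl22 and Ccl24 were at -0.09, 0.05 and 0.42, with Ccl22 at 0.20 without that library. The smallest p-values belonged to Irf4, a transcription factor of the IL-4 response, at 0.69 (standard error 0.25) and to Cd200r1, an inhibitory receptor, at -0.58 (standard error 0.20), each with an adjusted p of 0.328. Among 16 genes tied to IL-10 the estimates were mostly negative. All were tested, 15 had estimates below 0 and 8 did not overlap with ko lower (12.6% of all genes), but 0 passed the adjusted threshold, and the median was -0.50. Socs3, the main feedback gene of STAT3, belongs to this list too, Il1rn, the IL-1 receptor antagonist, was at -0.51 (standard error 0.27) and Maf, a factor that drives Il10, at -0.44 (standard error 0.16). Sbno2 was at -0.77 (standard error 0.20, adjusted p = 0.328), and at -0.51 (standard error 0.13) without wt replicate 1. Il21r, with 0.31, was the only estimate above 0, and was at 0.46 without that library. Cd163, often used as an M2 marker, was low, at 2.39 CPM in wt and 1.16 in ko. Its groups did not overlap, with ko lower (log2 fold change -1.05, standard error 0.38, adjusted p = 0.328).

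**Figure D4:**
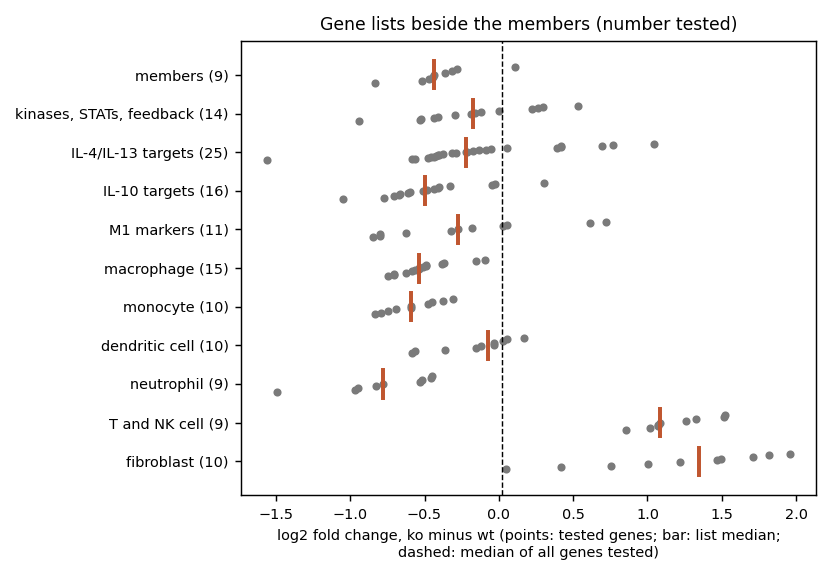
Log2 fold change (ko minus wt) of each tested gene (points) in the members, the signalling and target lists and lists of cell type markers, with the list median as an orange bar and the median of all genes tested as a dashed line at 0.02. The medians of the members (-0.44) and of the IL-10 targets (-0.50) lie near those of the macrophage (-0.54) and monocyte (-0.59) lists.

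Markers of macrophages, monocytes and neutrophils also had estimates below 0, and those of fibroblasts and of T and NK cells above 0. Of 15 macrophage identity genes, all had estimates below 0, with a median of -0.54, and their summed level was 22448 to 27956 CPM in wt and 13545 to 22814 CPM in ko. The monocyte list (10 of 10 genes below 0) summed to 9559 to 11723 CPM in wt and 5483 to 9216 CPM in ko, and the neutrophil list (9 of 9 tested genes below 0) to 1893 to 2120 CPM and 839 to 1613 CPM. The fibroblast list summed to 32.7, 491 and 305 CPM in wt replicates 1, 2 and 3 and to 369 to 715 CPM in ko, and the T and NK cell list to 42.6 to 119 CPM in wt and 96.7 to 277 CPM in ko. Most of the fibroblast sum came from Col3a1, with 426 CPM in wt replicate 2 and 604 in ko replicate 1. The carcinoma list, of which Epcam, Krt19 and Sftpc were too low to test, summed to 35.2 to 137 and 129 to 191 CPM. Krt8 alone had 171 CPM of the 191 in ko replicate 1, but 9.90 of the 35.2 in wt replicate 1. Dendritic cell markers summed to 239.9 to 419 CPM in wt and 272 to 384 CPM in ko. Markers of eosinophils, mast cells and basophils, known sources of IL-4, summed to at most 4.99 CPM, and B cell and endothelial markers to at most 58.0 and 44.1 CPM. The part of these cell types in the results on the members was not tested, and in bulk libraries fewer cells of a type and less RNA per cell cannot be told apart.

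Each member was also expressed per 1000 counts of the macrophage list of the same library. That list was itself lower in ko, with a median log2 fold change of -0.54 against 0.02 for all genes tested. A gene with equal CPM in both groups would thus also come to a ratio of ko to wt above 1, so such ratios do not single out the members. On this scale the values of every member overlapped between the groups over 6 libraries, and the share over all genes was not computed. With wt replicate 1 set aside, each ko library lay above the other wt libraries for Il10ra and Retnla. The share of all genes that did so was not computed either. The list made up 2.431% and 2.207% of counts in wt replicates 2 and 3 and 1.871%, 1.553% and 2.21% in ko. A smaller divisor raises every gene of that library, so this separation does not single out the members. Il10ra had 16.7 and 19.4 in wt replicates 2 and 3 and 21.2, 23.3 and 20.2 in ko. Retnla had 0.0822 and 0.175 in those wt libraries and 0.407, 0.463 and 0.200 in ko. Mrc1 had 12.9, 14.4 and 22.1 in wt replicates 1, 2 and 3 and 16.6, 18.4 and 20.4 in ko replicates 1, 2 and 3, which gave means of 16.5 ± 4.97 (SD, n = 3) and 18.5 ± 1.93 (SD, n = 3). Il10rb, whose CPM did not overlap, had 5.32 ± 0.473 in wt and 5.35 ± 0.772 in ko (SD, n = 3), and Il4ra 22.3 ± 2.58 and 23.2 ± 2.71. The ratio of the ko to the wt mean was 1.01 for Il10rb, 1.02 for Mgl2, 1.04 for Il4ra, 1.07 for Il10, 1.11 for Il13ra1 and Il10ra and 1.12 for Mrc1. It was 0.786 for Chil3 and 1.67 for Retnla. Over 6 libraries, 7 members with estimates below 0 in CPM thus came to a ratio above 1 relative to macrophage transcripts, and Chil3 did not. Without wt replicate 1, which held the lowest wt values of Il10 (4.08) and Il10rb (4.78), the ratios of both fell below 1. That of Retnla, for which this library was the highest in wt (0.383), rose. Lyz2, the lysozyme of myeloid cells, made up 39.81% to 50.59% of the list, and is itself shared with monocytes and neutrophils.

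**Figure D5:**
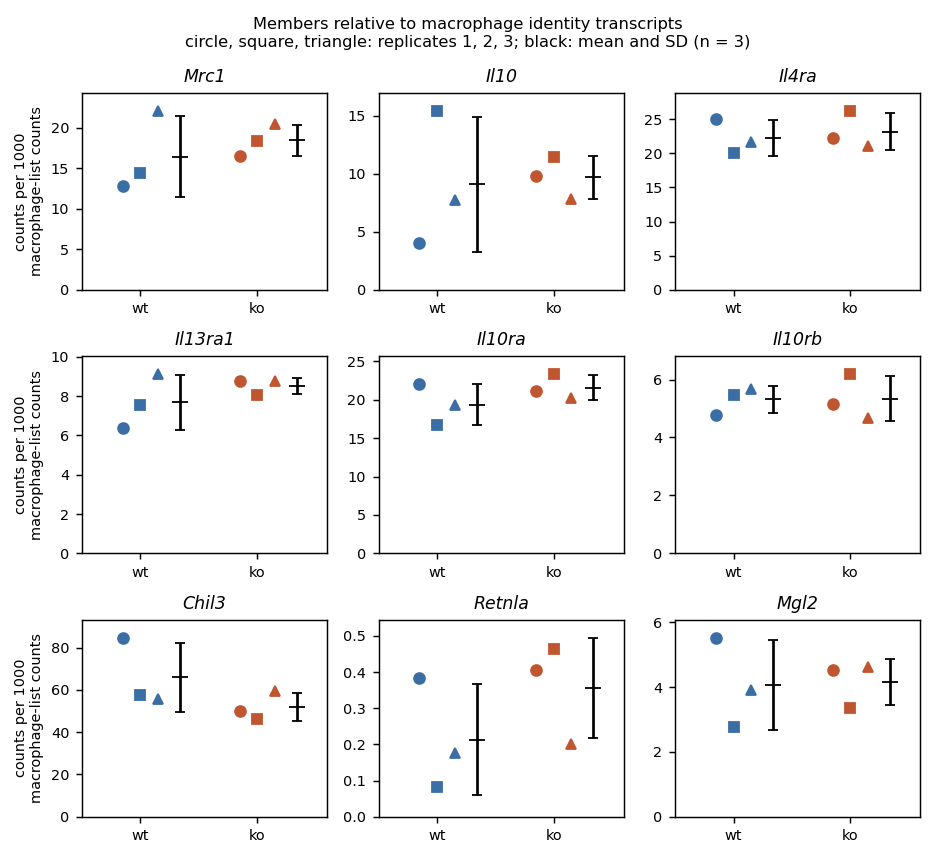
Counts of each member per 1000 counts of 15 macrophage identity genes in the same library; wt in blue, ko in orange, symbols for replicates 1, 2 and 3, black bars for the mean and SD of 3 libraries. Over 6 libraries the groups overlap in all 9 panels, Il10rb and Il4ra included, and Chil3 has the lowest ratio of ko to wt means (0.786).

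The calls of members depended on which libraries and which tool were used, and not on scaling. Without ko replicate 3, 6 members did not overlap with ko lower (Mrc1, Il4ra, Il13ra1, Il10ra, Il10rb and Chil3), against 22.8% of all genes. The same 6 did not overlap without both wt replicate 1 and ko replicate 3, against 26.1% of all genes. On those 4 libraries DESeq2 gave an adjusted p under 0.05 to 6 members, against 10.6% of all genes in either direction. These were Chil3 (log2 fold change -0.90), Mrc1 (-0.72), Il10rb (-0.66), Il13ra1 (-0.64) and Il4ra (-0.47), lower in ko, and Retnla (1.12), higher in ko. By edgeR on the same 4 libraries 0 members passed. Ko replicate 3 held the highest ko value of Mrc1, Il4ra, Il13ra1, Il10ra, Il10rb and Chil3, and the lowest of Retnla. Leaving it out therefore favored these separations and calls. No other pair of libraries was left out.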

How the data were processed

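RNA of TAMs was measured in 6 libraries, 3 labelled wt and 3 labelled ko and knockdown. The authors deposited raw counts per gene and FPKM values, and within 0.1% the deposited FPKM implied 1 length for each of 13255 genes checked. The build in the submitters' processing notes is mm10. The aligner, counter and annotation are not given in the sources used here. Genes were matched by symbol to GENCODE M21 (GRCm38) and RefSeq (GRCm38.p6). Counts were filtered with filterByExpr, TMM-scaled and tested with glmQLFit and glmQLFTest of edgeR 4.0.16 in R 4.3.3, with Benjamini-Hochberg adjustment over 13884 genes. Each standard error was taken from the estimate and the F statistic. Alternatives used DESeq2 1.42.0 on genes with any count and limma 3.58.1 on log2 FPKM plus 1 or plus 0.1. log2 CPM used a prior count of 2. Labels call the libraries biosamples without naming animals, and a display of the study gives fewer mice per group than there are libraries here, so n counts libraries and p-values measure the spread between them, which may be partly technical. At this depth 3 counts correspond to 0.0716 to 0.0846 CPM. Il22ra1, Ear11, Epx, Trac, Ighm, Cldn7 and Nkx2-1 had no row in the table under that symbol.

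The members and gene lists were chosen with earlier results of these data known. The genes named with values were the members, Npm1, all genes of the ligand, partner chain and signalling lists, fixed examples of the target and M1 lists, the top-ranked gene by p-value, per direction, of the target, relative and M1 lists, and the 3 genes closest in profile to each member. Ptprc, Itgam, Adgre1, Csf1r, Cd68 and Lyz2 were added outside this rule, to check the sorted cell type and the macrophage list. Col3a1 and Krt8 were also added, to show their part in the summed levels. The replicate numbers were not treated as pairs in the main test. The ratio to the mean log2 level of the macrophage list was added after the data were examined.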

Additional observations from a re-analysis of the deposited data

How the results depend on the processing

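The number of genes changed was 0 in edgeR and limma under every scaling, filter, pseudocount and left-out library tried, but 36 with DESeq2, 78 with DESeq2 without wt replicate 1, and 1284 with DESeq2 without wt replicate 1 and ko replicate 3, so it ranged from 0 to 1284 over the fits that left libraries out. The number of members called ranged from 0 to 6 over these fits and was 6 only in the last of them, which left out the only pair of libraries tried. There the log2 fold changes and adjusted p were -0.72 and 0.00423 for Mrc1, -0.47 and 0.0416 for Il4ra, -0.64 and 0.0187 for Il13ra1, -0.66 and 0.00464 for Il10rb, -0.90 and 7.2e-04 for Chil3, and 1.12 and 0.0311 for Retnla. Over the other alternatives these members stayed above the threshold, and the cause of the difference between the tools was not tested.

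Over all leave-out fits, by either tool, the estimate ranged from -0.72 to -0.11 for Mrc1, from -0.85 to 0.23 for Il10 (from -0.80 by edgeR), from -0.61 to -0.30 for Il4ra, from -0.64 to -0.12 for Il13ra1, from -0.52 to -0.18 for Il10ra, from -0.66 to -0.45 for Il10rb, from -1.18 to -0.52 for Chil3, from -0.28 to 1.15 for Retnla and from -0.74 to -0.06 for Mgl2. The estimate of Il10 was 0.23 without wt replicate 2, and that of Retnla was -0.28 without wt replicate 2, -0.11 without wt replicate 3 and -0.05 without ko replicate 1. The number of members that did not overlap, lower in ko, ranged from 2 to 6, and was 6 without ko replicate 3 (22.8% of all genes) and 6 without wt replicate 1 and ko replicate 3 (26.1%), against 12.6% of all genes with 6 libraries. No scaling, filter or pseudocount changed a direction of a member. The sizes did move by limma on log2(FPKM + 1), where no TMM scaling enters and every member had a higher estimate than by edgeR. There Il10rb was at -0.36, Mrc1 at -0.17, Il10 at -0.09 and Retnla at 0.47. By CPM, without division by length, 6 members changed rank. Set against the mean log2 level of the macrophage list, the members kept the sign of their ratio except Il10rb (-0.0047 in place of 0.0079).

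With the replicate number as a block, edgeR called 0 genes (1606 at an unadjusted p under 0.05, against 2112) and changed no call or direction of a member. The deviations of same-numbered libraries correlated at -0.241, 0.06 and -0.337, which gave no sign of pairing by number. So few libraries cannot exclude a pairing. No group had the 4 libraries that a test for single outlying libraries needs.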

Other observations

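Inflammatory (M1) markers, for contrast with the M2 markers, had a median log2 fold change of -0.27, with 7 of 11 estimates below 0 and 0 past the adjusted threshold of edgeR's test. The median was -0.51 without wt replicate 1, with 9 of 11 below 0. Tnf, the cytokine tumor necrosis factor, had 393, 541 and 393 CPM in wt replicates 1, 2 and 3 and 705, 711 and 770.0 CPM in ko replicates 1, 2 and 3, without overlap (log2 fold change 0.72, standard error 0.16, adjusted p = 0.328). Cd86 was at 0.06 (standard error 0.16), and at -0.07 without wt replicate 1, Il1b at -0.32 (standard error 0.37), and at -0.51 without it, and Nos2, the inducible nitric oxide synthase, at -0.80 (standard error 0.29, adjusted p = 0.328). The smallest p-value among the lower genes belonged to Cxcl9, a chemokine induced by interferon gamma, at -0.80 (standard error 0.28).

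Among relatives of the marker members, Ly75, a receptor of the mannose receptor family also known as DEC-205, had 11.4, 15.8 and 18.9 CPM in wt and 28.0, 32.7 and 26.8 CPM in ko (log2 fold change 0.93, standard error 0.21, adjusted p = 0.328), and Retnlg, a resistin-like gene of neutrophils beside Retnla, was at -0.52 (standard error 0.18). Of 13 relatives 7 were tested, 5 with estimates below 0, and without wt replicate 1 it was 4 of 8.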
